A study of Rattus norvegicus with 2 samples.

Results

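Long noncoding RNAs (lncRNAs) longer than 400 nt and shorter than 1000 nt were chosen by length alone from the rat hypothalamus, and 1047 of the 4052 deposited lncRNAs fell in this range. The other lncRNAs comprised 2304 transcripts of 200 to 400 nt and 701 of at least 1000 nt. The 1047 members came from 924 loci, of which 827 gave 1 member, 79 gave 2 and 18 gave 3 or more. Transcripts at both bounds show where the class ends. TCONS_00203486 and TCONS_00287589, both of 400 nt, were left out with 2.01 and 0.669 FPKM before puberty, and TCONS_00165473, of 1000 nt, was left out with 3.50 FPKM. TCONS_00050208, among the shortest members, was kept with 2.33 FPKM before puberty. The 4 shortest members, of equal length, were all at 0 at puberty. Of the 3 longest members, TCONS_00059116 had 6.40 and 6.10 FPKM before and at puberty, TCONS_00334813 had 0.843 and 0 FPKM, and TCONS_00376163 had 0 and 1.5 FPKM.

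RNA was taken from the hypothalamus of female Sprague Dawley rats without any transgene or treatment. Prepubertal rats were taken at postnatal day 25 and pubertal rats at their first estrus, on day 35. The methods give 3 rats per stage, and the deposited tables give 1 FPKM column per stage, with no statement of how the rats were combined. FPKM is the number of sequenced fragments scaled to the length of the transcript and the size of the library. Each stage was therefore treated as 1 library, no difference was tested, and a counting interval describes these libraries and not the spread between rats.

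LncRNAs are transcribed and processed much like messenger RNAs but are not translated into a known protein. Many are kept at low levels and in few cell types, and their sequences often hold pieces of transposable elements. Some start next to a protein-coding gene on the other strand, where the promoter drives transcription in both directions. Nuclear RNAs are cleaved and given a poly(A) tail a short distance after a signal, of which AATAAA (in DNA letters) is the most common form. A short transcript in such a list can be a whole short RNA or a piece of a longer one that was assembled from few reads.

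The hypothalamus label was checked against neuropeptide genes of this region. All 13 of them, among them Pomc, Oxt, Avp and Gnrh1, lay at 1 FPKM or more in both libraries, and their summed level was 2809 FPKM before puberty and 4231 FPKM at puberty. The 3 red blood cell genes summed to 5244 and 10737 FPKM. The 5 pituitary genes summed to 6.99 and 14.5 FPKM, with Prl at 0 before puberty and 3.40 FPKM at puberty, and 2 of the 5 lay at 1 FPKM or more in both libraries. The 3 thalamic genes summed to 158 and 124 FPKM, the 4 choroid plexus genes to 34.2 and 28.3 FPKM, and the 3 neuronal genes to 887 and 820 FPKM. The astrocyte, oligodendrocyte and microglial genes, 3 of each, summed to 498, 10089 and 92.1 FPKM before puberty and to 498, 10999 and 118 FPKM at puberty. The part of these differences in the lncRNA values was not tested. In bulk tissue, fewer cells of a type and less RNA per cell cannot be told apart.

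Sequences are shown where a result rests on them. The ends of 6 members are given because they show the poly(A) signal in place. They are the members with AATAAA within their last 50 bases that had the highest prepubertal FPKM, 1 per locus, read 5′ to 3′, with the signal in capitals.
TCONS_00061370: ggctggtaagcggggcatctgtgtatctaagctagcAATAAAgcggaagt
TCONS_00374813: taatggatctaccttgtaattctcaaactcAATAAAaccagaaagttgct
TCONS_00377797: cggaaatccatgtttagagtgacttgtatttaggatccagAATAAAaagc
TCONS_00375351: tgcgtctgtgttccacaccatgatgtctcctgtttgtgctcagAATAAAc
TCONS_00206405: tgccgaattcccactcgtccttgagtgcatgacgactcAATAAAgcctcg
TCONS_00356819: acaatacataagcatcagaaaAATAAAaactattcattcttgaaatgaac

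In these ends the signal began 14, 20, 10, 7, 12 and 29 bases before the last base, counted from its first A to the end of the transcript. The levels of these members ran from 29.6 FPKM before and 27.1 FPKM at puberty for TCONS_00061370 to 5.07 and 6.89 FPKM for TCONS_00356819.

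The bases that lay ahead of the start of an annotated gene are given for 3 members, because they show where such members begin. The coordinates are those of RefSeq promoter windows of the GRCr8 build, matched here base by base, and CG is in capitals. The stretch of TCONS_00348424 lies on the plus strand at chr4:137847695-137847894, on the strand of Chl1, a neural cell adhesion molecule, and ends at the base before the start of that gene. The stretch of TCONS_00356819 lies on the plus strand at chr4:154728079-154728182, and that of TCONS_00419625 on the plus strand at chr6:94592696-94592801. Their genes, Erc1, which encodes a protein of the presynaptic active zone, and Trim9, a ubiquitin ligase of neurons, lie on the other strand.
TCONS_00348424: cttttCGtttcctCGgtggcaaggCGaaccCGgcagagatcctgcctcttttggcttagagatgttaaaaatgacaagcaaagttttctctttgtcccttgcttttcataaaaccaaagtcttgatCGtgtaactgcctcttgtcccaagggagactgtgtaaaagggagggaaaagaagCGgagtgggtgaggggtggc
TCONS_00356819: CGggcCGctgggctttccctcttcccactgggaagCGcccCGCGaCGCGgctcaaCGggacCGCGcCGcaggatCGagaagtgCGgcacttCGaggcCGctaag
TCONS_00419625: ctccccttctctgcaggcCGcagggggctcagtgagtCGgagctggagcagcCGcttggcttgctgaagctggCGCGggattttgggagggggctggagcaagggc

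CG occurred 15 times in the 104 bases of TCONS_00356819, which is 14.4 per 100 bases, against 3 per 100 bases in the stretch of TCONS_00348424 and 4.72 in that of TCONS_00419625. Across all 33469 rat promoter windows the median was 2.33 per 100 bases, and 94.5% of the windows held at least 1 CG. CG reads the same on both strands.

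Most members were low. The median member lay at 0.956 FPKM before puberty (quartiles 0.669 and 1.53) and at 0.571 FPKM at puberty (quartiles 0 and 1.52). At least 1 FPKM was reached by 496 members before puberty and 375 at puberty, and at least 10 FPKM by 29 and 33. These few carried much of the level. The members at 10 FPKM or more made up 41.0% of the summed FPKM of the class before puberty and 50.7% at puberty, and the 5 highest made up 19.8% and 24.2%. Long lncRNAs, of at least 1000 nt, had a median of 0.951 FPKM before and 1.02 FPKM at puberty, close to the members before puberty. Short lncRNAs, of 200 to 400 nt, had medians of 2.78 and 0 FPKM.

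The low end differed between the libraries. Above 0 but below 0.5 FPKM lay 58 members before puberty (5.61% of those above 0) and 219 at puberty (28.4% of those above 0). From 0.5 to under 1 FPKM lay 479 and 178 members, and at 0 lay 14 and 275. The prepubertal values were thus gathered just under and above 1 FPKM, whereas the pubertal values were spread down to 0.

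**Figure D1:**
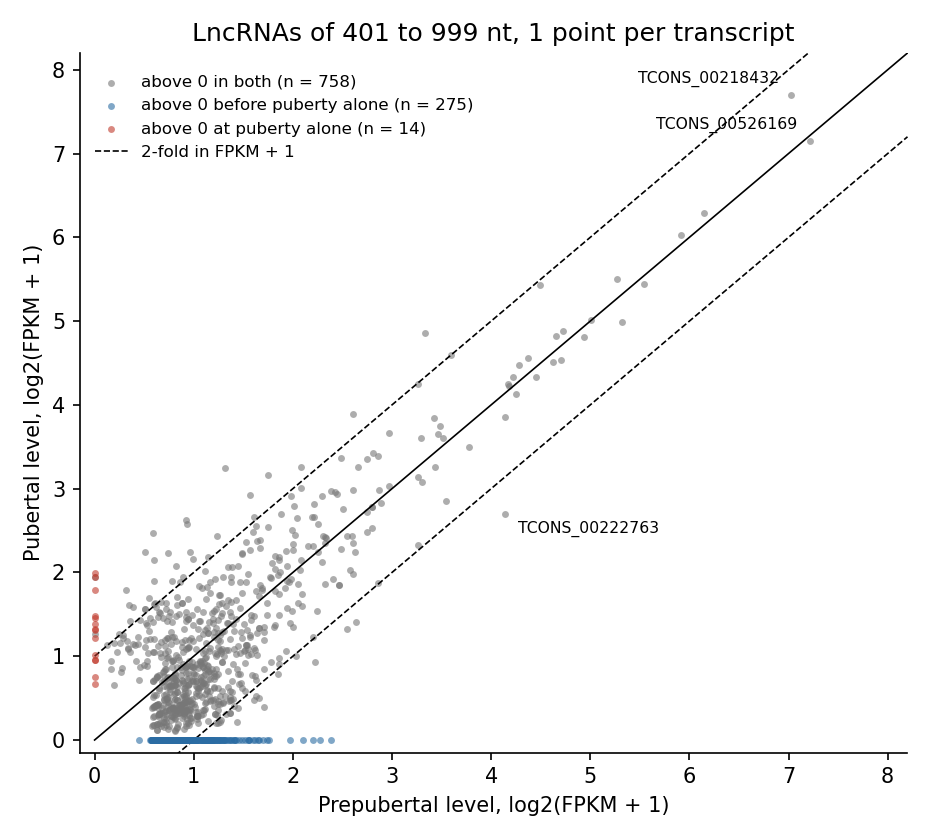
Each point is a member, with its prepubertal level on the x axis and its pubertal level on the y axis, both as log2(FPKM + 1). The solid line marks equal levels and the dashed lines a 2-fold difference in FPKM + 1. The 275 members at 0 at puberty lie along the bottom, the 14 at 0 before puberty along the left, and the highest members lie near the solid line.

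The number of fragments behind an FPKM could be read from the values. For the 701 members that are the only listed transcript of their locus, FPKM moved in steps of 1 fragment, and 96.3% of the prepubertal and 96.2% of the pubertal values under 20 fragments came out whole within 0.05 of a fragment. The steps corresponded to 20.7 M fragments before puberty and 16.1 M at puberty. A single fragment was worth 0.333 FPKM before and 0.410 FPKM at puberty in the shortest members, and 0.0650 and 0.0827 FPKM in the longest.

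These members rested on few fragments. The prepubertal values above 0 had a median of 6 fragments and the pubertal values above 0 a median of 4. Before puberty only 2 of the 701 members had 1 fragment, 61 had 2, and 2 were at 0. At puberty 107 had 1 fragment, 64 had 2, and 207 were at 0. At least 10 fragments were behind 182 prepubertal and 130 pubertal values. The authors assembled the transcripts from the reads of these libraries with no minimum number of fragments, and the part of the assembly in the scarcity of 1-fragment values before puberty was not tested.

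**Figure D2:**
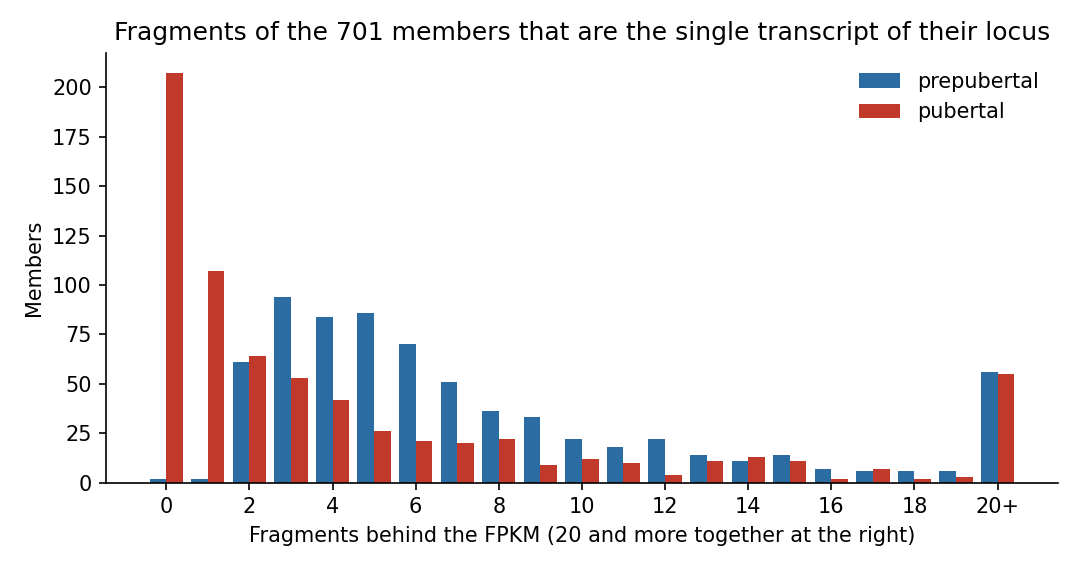
The x axis gives the number of fragments behind the FPKM, rounded to whole fragments, and the y axis the number of members, among the 701 that are the only transcript of their locus. The bars for 0 and 1 fragment hold 207 and 107 members at puberty and 2 and 2 before puberty.

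FPKM was above 0 in both libraries for 758 members, which is 72.4% (Wilson interval at 95%, 69.6% to 75%, counting error only). It was above 0 before puberty alone for 275 members and at puberty alone for 14, and no member was at 0 in both. Of all lncRNAs 44.6% were above 0 in both libraries and 54.6% before puberty alone. Of 26324 mRNAs 70.9% were above 0 in both, 3.96% before puberty alone and 3.41% at puberty alone. The other 5724 mRNAs were at 0 in both, so their share in both is not of a like set. The share measured in both libraries was 16.4% among short lncRNAs (15% to 18%) and 95.4% among long lncRNAs (93.6% to 96.7%), so the intervals of the 3 classes do not overlap. Within the class the share went from 53.4% at up to 500 nt (48.4% to 58.3%) to 75.1% at 500 to 600 nt (68.7% to 80.6%) and 78.8% at 600 to 700 nt (71.8% to 84.4%), where each bin leaves out its lower and holds its upper bound. It was 92.4% at 700 to 800 nt, 91.6% at 800 to 900 nt and 88.6% above 900 nt, and the intervals of these last bins overlap.

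Members at 0 at puberty had few fragments to begin with. Among the 207 such members with 1 transcript at their locus, the median before puberty was 4 fragments, 77.8% had 5 or fewer, and the highest had 16. The 492 members measured in both libraries had a prepubertal median of 7 fragments. Of the 182 members with 10 fragments or more before puberty, 6 were at 0 at puberty. At this depth a value of 0 allows up to 3 fragments, or 1.23 FPKM in the shortest and 0.248 FPKM in the longest members at puberty, so a value of 0 cannot be told from a low level.

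The levels of each member were compared between the stages as the log2 ratio of pubertal to prepubertal FPKM + 1, in which a positive value means a higher level at puberty. The median ratio was -0.38 over all members and -0.17 over the 758 measured in both libraries. It was -1.65 for short lncRNAs, -0.04 for long lncRNAs, -0.88 for all lncRNAs and 0.00 for all mRNAs. The median of the class was thus between those of the shorter and the longer lncRNAs. By length it was -0.67 at up to 500 nt, -0.35 at 500 to 600 nt, -0.42 at 600 to 700 nt, -0.12 at 700 to 800 nt, -0.07 at 800 to 900 nt and -0.04 above 900 nt, so it lay nearer to 0 in the longer bins but not in a steady order.

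At least 2-fold higher at puberty were 45 members (4.30%), beside 2.27% of all lncRNAs and 0.813% of all lncRNA and mRNA transcripts together. At least 2-fold lower were 114 members (10.9%), beside 45.6% of all lncRNAs and 6.66% of all transcripts. Of the 114 lower members 94 were at 0 at puberty, and of the 45 higher members 10 were at 0 before puberty. Of the 758 members with no value of 0, 35 were 2-fold higher and 20 2-fold lower, beside 70 and 81 of 1806 lncRNAs and 109 and 113 of 18659 mRNAs above 0 in both. This filter drops the 94 lower and 10 higher members with a value of 0. Lower members were found mostly at the short end, with 76 of 382 members at up to 500 nt (19.9%), 17 at 500 to 600 nt, 14 at 600 to 700 nt and 7 in the longer bins together. Higher members made up 2.36% at up to 500 nt and 9.32% at 700 to 800 nt, the highest share of a bin.

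**Figure D3:**
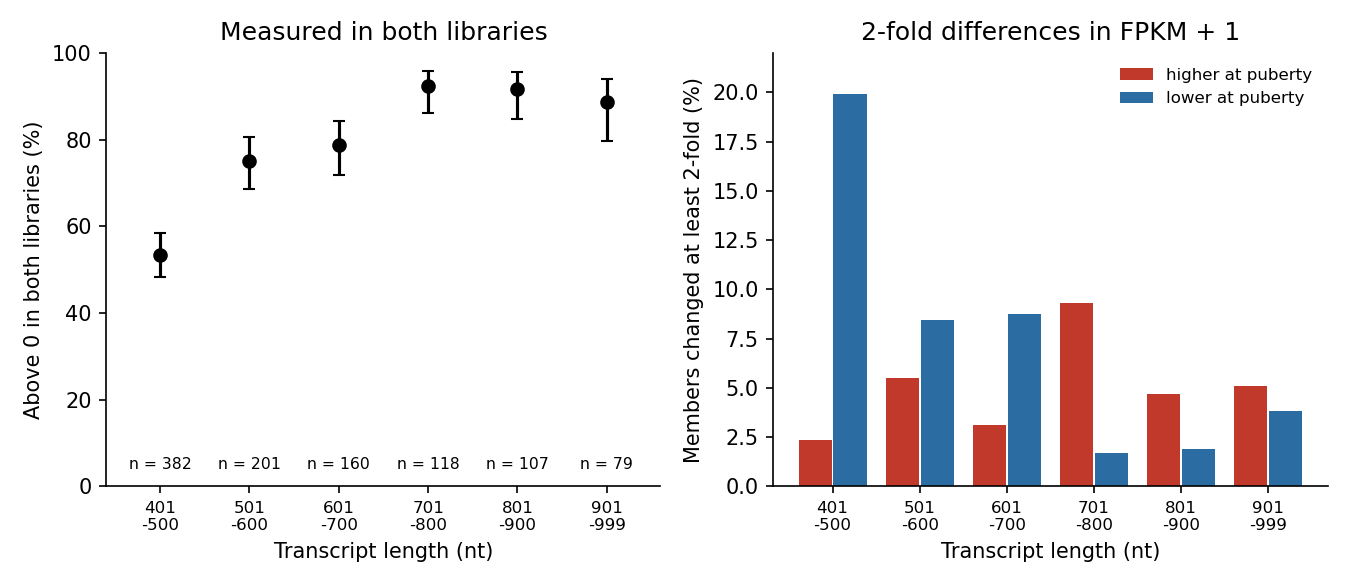
The left panel gives the share of members above 0 in both libraries by transcript length in nt, with Wilson intervals at 95%. The right panel gives the share at least 2-fold higher (red) and lower (blue) at puberty in FPKM + 1. The share measured in both libraries is lowest at up to 500 nt, where 19.9% were lower.

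Depth was then held to a minimum. Of the 701 members with 1 transcript at their locus, 287 had at least 10 fragments in both libraries together, and this setting was chosen after the data were seen. Among these, 13 were at least 2-fold higher and 12 at least 2-fold lower, and the median log2 ratio was -0.05. A member can reach the minimum through the library where it is high, as did TCONS_00234567 with 16 and 0 fragments, and no share over all lncRNAs was computed at this depth, so these counts are a description. The exact counting interval of the ratio between the libraries held 1 for 233 of the 287, lay above 1 for 31 and below 1 for 23. The highest FPKM among these 2-fold higher or lower members was 13.9.

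The most abundant members differed by less than 2-fold between the libraries. TCONS_00526169, of 489 nt, had 147 FPKM before and 141 FPKM at puberty, the highest prepubertal level of the class. TCONS_00218432, of 458 nt and the only transcript of XLOC_192033, had 130 and 207 FPKM and was the highest at puberty. It rested on 542 and 694 fragments, and the ratio of the libraries was 1.59 (counting interval 1.42 to 1.79). It was named for its level, so the interval is a description.

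TCONS_00377118 had 69.7 and 77.0 FPKM, a ratio of 1.11 (0.95 to 1.29). TCONS_00160277 had 59.4 and 64.2 FPKM, a ratio of 1.08 (0.971 to 1.20), with 92.3% of its bases in lower case. TCONS_00348424 and TCONS_00348425, both from XLOC_308965 next to Chl1, had 45.7 and 38.8 FPKM before and 42.5 and 30.7 FPKM at puberty. TCONS_00409316, of XLOC_333298 beside Stau2, an RNA-binding protein of dendrites, had 37.7 and 44.4 FPKM.

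The last 300 bases of TCONS_00218432 are printed because it is the member with the highest pubertal level. The capitals mark its longest reading frame, bases 293 to 379 of the transcript, 87 nt from ATG to stop.
TCONS_00218432: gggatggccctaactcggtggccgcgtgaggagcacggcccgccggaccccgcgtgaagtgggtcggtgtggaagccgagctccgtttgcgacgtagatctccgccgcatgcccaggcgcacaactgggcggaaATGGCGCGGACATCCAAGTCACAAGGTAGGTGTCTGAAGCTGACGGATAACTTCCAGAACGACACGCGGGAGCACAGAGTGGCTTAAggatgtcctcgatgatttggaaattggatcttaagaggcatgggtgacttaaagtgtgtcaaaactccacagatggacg

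This transcript has a GC content of 59.0% and no base in lower case. The neighbour that the study's list names for it, Epb41l4a, a protein that links the membrane to the cytoskeleton, had 9.24 and 10.4 FPKM.

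Among members measured in both libraries, the 5 largest log2 ratios of FPKM + 1 toward puberty came from low prepubertal levels. The order differs for plain FPKM, where TCONS_00232656, picked after its values were seen, had a ratio of 12.7 from 1 and 10 fragments. TCONS_00059156 had 0.000521 FPKM before and 2.85 FPKM at puberty, or 0.0038 and 16.6 fragments as apportioned among 3 transcripts, so it was in effect at 0 before puberty. TCONS_00466875 had 1.48 and 8.48 FPKM, or about 14 and 63 fragments as apportioned among 5 transcripts of XLOC_397459. TCONS_00136947 had 0.509 and 4.56 FPKM, and TCONS_00105675 had 0.426 and 3.74 FPKM. The summed lncRNAs of these 4 loci were 2.91 and 6.24 FPKM for the first and 4.13 and 11.6 for the second. They were 3.58 and 10.9 for the third and 2.06 and 4.62 for the last. Each sum holds the member picked for its rise, so it is not separate support. Other lncRNAs of these loci went either way. TCONS_00098253, at the last locus, had 1.64 and 0.881 FPKM, and TCONS_00059157, at the first, had 0.570 and 1.67 FPKM. Of the 5 members, only TCONS_00376169 was the single transcript of its locus. It had 0.893 and 5.17 FPKM, from 3 and 14 fragments, a ratio of 5.77 (1.61 to 31.3). It was named for its ratio, so this interval only shows how few fragments lie behind it.

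Other single-transcript members that were higher at puberty rested on more fragments, and TCONS_00292647 was picked for this after its values were seen. TCONS_00292647 had 5.10 and 13.9 FPKM from 31 and 67 fragments, a ratio of 2.72 (1.75 to 4.30). TCONS_00056509 had 1.97 and 6.58 FPKM from 14 and 37 fragments, a ratio of 3.33 (1.76 to 6.67). TCONS_00343479 had 0.954 and 3.74 FPKM from 12 and 37 fragments, a ratio of 3.92 (2.0 to 8.25). Just under the 2-fold line lay TCONS_00177635, with 8.62 and 18 FPKM and a log2 ratio of 0.98.

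Among members measured in both libraries, the lowest log2 ratio of FPKM + 1 was that of TCONS_00222763, with 16.6 FPKM before and 5.48 FPKM at puberty. Its locus holds a second transcript, TCONS_00222764, with 10.2 and 12.5 FPKM, and the sum of both was 26.9 and 17.9 FPKM. TCONS_00045336, all of whose bases are in lower case, had 2.27 and 0.319 FPKM from 18 and 2 fragments, a ratio of 0.140 (0.0158 to 0.586). TCONS_00430484 had 4.85 and 1.51 FPKM from 20 and 5 fragments, a ratio of 0.311 (0.0913 to 0.855). These are ratios of plain FPKM, which lie below the 0.337 of TCONS_00222763. Both members were named for their ratios, so the intervals are descriptions. TCONS_00487640 had 3.65 and 0.90 FPKM and TCONS_00206405 had 5.20 and 1.66 FPKM, each at a locus with another transcript.

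Of the members at 0 at puberty, TCONS_00234567 had the highest prepubertal level, 4.22 FPKM from 16 fragments, and was at least 4.29-fold lower at puberty, taking 3 fragments in the pubertal library as the limit and the prepubertal value as it stands. With the counting error of both libraries, the interval of the ratio reached up to 0.322. TCONS_00242887 had 3.82 FPKM from 13 fragments and was at least 3.50-fold lower by the same limit, with an interval of the ratio up to 0.406. Both members were named for these same values, so the fold limits and intervals are descriptions. TCONS_00275305 had 3.61 FPKM and shared its locus with 4 other transcripts. Of the members at 0 before puberty, TCONS_00118775 had 2.97 FPKM at puberty, TCONS_00495256 had 2.85 FPKM and TCONS_00494267 had 2.46 FPKM, and each had another transcript at its locus.

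Loci with several transcripts held 346 members (33.0%). They held 31 of the 45 higher members (68.9%) and 36 of the 114 lower members (31.6%). At these loci 8.96% of members were at least 2-fold higher, against 2.0% of the members at single-transcript loci, whereas 10.4% and 11.1% were at least 2-fold lower. Fragments at such loci are divided among overlapping transcripts by the FPKM estimate. The summed FPKM of all lncRNAs of the locus was therefore set beside the member.

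Of the 61 members at loci with more than 1 lncRNA that were at least 2-fold higher or lower, 14 had a locus sum that differed at least 2-fold in the same direction, and 10 had a locus sum of the opposite sign. Of the 14 members at 0 before puberty, 12 had another lncRNA at the locus, and each of these 12 loci was above 0 before puberty. Of the 275 members at 0 at puberty, 45 had a locus sum above 0 at puberty.

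**Figure D4:**
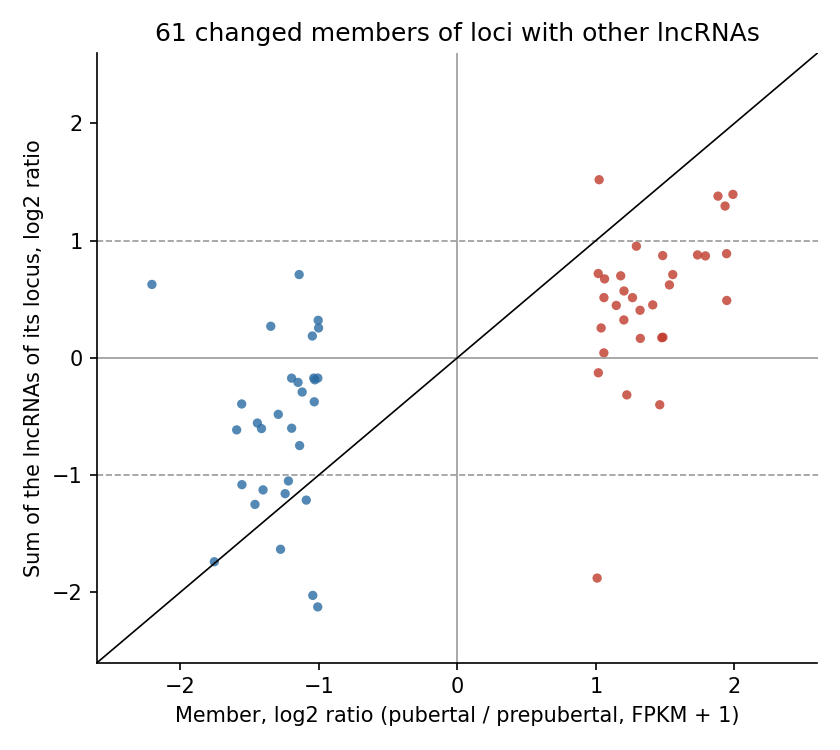
Each point is 1 of the 61 members at loci with several lncRNAs that were at least 2-fold higher (red) or lower (blue) at puberty. The x axis gives the log2 ratio of the member and the y axis that of the summed lncRNAs of its locus, both pubertal over prepubertal in FPKM + 1. Most points lie between the dashed lines of a 2-fold change of the locus, and 10 lie on the other side of 0 from the member.

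XLOC_245019 holds transcripts whose levels moved in opposite directions, and the part of the division of fragments in this was not tested. The locus had 32.4 FPKM before and 50.6 FPKM at puberty. TCONS_00275304 had 21.5 and 42.3 FPKM, while TCONS_00275305 had 3.61 and 0 FPKM. The transcripts are identical over their first 655 and last 2 bases and differ by 13 bases that are in TCONS_00275305 alone. Their sequences after base 600 are printed because the transcripts differ only there, with those bases in capitals.
TCONS_00275304: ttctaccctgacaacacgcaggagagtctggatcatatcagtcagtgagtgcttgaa
TCONS_00275305: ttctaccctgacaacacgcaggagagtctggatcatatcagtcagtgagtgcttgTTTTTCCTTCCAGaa

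A fragment tells them apart only if it reaches the last bases. In XLOC_426029, TCONS_00495256 had 0 and 2.85 FPKM and TCONS_00495255 had 5.94 and 5.90 FPKM, and the locus sum was 5.94 and 8.75 FPKM. In XLOC_333298, TCONS_00409315 had 9.05 and 28.0 FPKM beside the 37.7 and 44.4 FPKM of TCONS_00409316, and the sum was 46.7 and 72.4 FPKM.

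XLOC_042960 gave the most members, with 7, and had 13.0 FPKM before and 15.5 FPKM at puberty. Its members ran from 0 to 4.04 FPKM before and from 0 to 6.06 FPKM at puberty. XLOC_426197 gave 5 members and had 8.71 and 10.7 FPKM, and XLOC_058426 gave 4 and had 24.6 and 25.4 FPKM. In the last locus TCONS_00066033 had 8.57 and 4.03 FPKM while TCONS_00087307 had 2.04 and 5.33 FPKM. The sums of these loci thus moved less than some single transcripts within them, but not less than all. In XLOC_042960 the sum had a log2 ratio of 0.24 and TCONS_00045366 one of -0.01.

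XLOC_113511 was measured by the study as a lncRNA near Kiss1, the gene of the peptide that drives the release of gonadotropin-releasing hormone, and it gave 2 members. It was taken up here because of the study's interest, outside the rule for named members. TCONS_00136999 had 17.7 and 19.1 FPKM and TCONS_00129939 had 12.7 and 10.3 FPKM, with a locus sum of 30.4 and 29.3 FPKM. Kiss1 itself had 1.46 and 3.78 FPKM. By quantitative PCR, a different measure, the study reported an increase of both XLOC_113511 and Kiss1 in rats at puberty. In FPKM the locus sum was nearly level, and the reason for this difference was not tested.

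The study listed neighbouring genes for lncRNAs that it had selected on these same samples. This list gave 92 pairs of member and gene for 32 members of at least 1 FPKM in a library, with 16 members higher and 16 lower at puberty. In 63 pairs the gene lay at 1 FPKM or more in a library. It moved in the direction of the member in 33 of these and against it in 30. Their median size of log2 ratio was 0.15, against 1.28 for the members, and 2 genes differed at least 2-fold. These were ENSRNOG00000040024, with 8.35 and 3.66 FPKM, and Rpl37-ps1, with 0 and 3.74 FPKM, both beside TCONS_00213708, which had 2.16 and 0 FPKM. Rpl37-ps1 is named as a pseudogene of a ribosomal protein, so its reads may be shared with near-identical copies and its values are uncertain.

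Some neighbours of members that were higher at puberty were nearly level. Gnas, the gene of a G-protein subunit, had 950 and 839 FPKM under the more abundant of its identifiers beside TCONS_00343479. APLP1, a relative of the amyloid precursor protein, had 313 and 344 FPKM beside TCONS_00056509. Nr3c1, the glucocorticoid receptor, had 53.7 and 53.8 FPKM beside TCONS_00227332, a member at a locus of several transcripts with 3.24 and 8.61 FPKM. Stau2 had 113 and 125 FPKM beside TCONS_00409315. Other neighbours were lower or higher at puberty. Spry4, also beside TCONS_00227332, had a log2 ratio of -0.52. Lingo1, an inhibitor of axon growth and myelination beside TCONS_00473483, had 17.6 and 10.6 FPKM (-0.68), Rasd2, a small GTPase beside TCONS_00234567, had 15.8 and 11.6 FPKM (-0.42), and Sbk1, a kinase beside TCONS_00056227, had 6.64 and 4.77 FPKM (-0.41). Slc18b1, a vesicular transporter beside TCONS_00029476, had 7.2 and 9.67 FPKM (0.38), LOC100359593, beside the same member, had 726 and 1083 FPKM (0.58), and Shq1, an assembly factor of H/ACA ribonucleoproteins beside TCONS_00376163, had 3.21 and 4.57 FPKM (0.40). The members next to Lingo1, Rasd2, Slc18b1 and LOC100359593 were lower at puberty and those next to Spry4, Sbk1 and Shq1 higher.

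The start of an annotated gene was searched in the members by exact matches of at least 100 bases to RefSeq promoter windows of GRCr8, which run from 250 bases before to 50 bases after the start. Such a match was found for 69 members, 6.59% (Wilson interval 5.24% to 8.26%), against 2.30% of short lncRNAs (1.76% to 3.0%) and 13.4% of long lncRNAs (11.1% to 16.1%). The share in the class thus lay between those of the others, with intervals that do not overlap. On the strand of the gene lay 48 members and on the other strand 29, with 8 counted under both. Protein-coding genes accounted for 39 members. The builds differ and substitutions break a match, so starts can be missed. A repeated sequence can also match windows elsewhere, as in TCONS_00052525, which matched 24 windows on several chromosomes, so a match does not place a member at that gene.

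Members with a match were measured in both libraries in 85.5% (75.3% to 91.9%), against 71.5% of the others (68.6% to 74.2%). They were also longer, with a median of 655 nt against 562.5 nt, and the part of length in this difference was not tested. Their median level was 1.29 FPKM before and 1.02 FPKM at puberty, against 0.931 and 0.547 FPKM. Their median GC content was 50.9% against 47.6%, and CG occurred 2.56 times per 100 bases against 1.60. They were at least 2-fold higher in 4 cases (5.80%) and lower in 8 (11.6%), near the 4.19% and 10.8% of members without a match.

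Of the members on the other strand, 17 began ahead of a gene and ran away from it, 14 of them at protein-coding genes. These 14 started 43 to 145 bases ahead of the gene, within the range that the window allows, and 13 of the 14 were measured in both libraries. Their levels ran from 0.184 to 5.07 FPKM before and from 0 to 6.89 FPKM at puberty. For 13 of the 14 the gene was listed among the mRNAs, and its summed level was above that of the member in 11 of 13 cases in each library.

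TCONS_00356819, which started 92 bases ahead of Erc1, had 5.07 and 6.89 FPKM, and Erc1 had 14.5 and 14.6 FPKM. TCONS_00419625, which started 145 bases ahead of Trim9, had 1.58 and 1.88 FPKM, and Trim9 had 17.1 and 11.1 FPKM. TCONS_00233231 started 71 bases ahead of Spry4, an inhibitor of receptor tyrosine kinase signalling, and its 2.94 and 2.79 FPKM lay above the 2.22 and 1.25 FPKM of the gene. TCONS_00212558 started 126 bases ahead of Optn, an autophagy receptor, and had 0.184 and 1.40 FPKM while Optn had 36.6 and 41.0 FPKM. Its locus holds a second lncRNA, and their sum was 1.62 and 1.40 FPKM. The 13 genes had log2 ratios from -0.57 to 0.31.

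Members on the strand of the gene included TCONS_00348424 at Chl1, TCONS_00222763 and TCONS_00222764 at Ldlrad4, TCONS_00233251 at Ppp2r2b, a regulatory subunit of a brain phosphatase, and TCONS_00233469 at Dcc, a receptor for axon guidance. TCONS_00233251 had 25.1 and 22.1 FPKM and TCONS_00233469 had 8.84 and 7.45 FPKM. TCONS_00218614 held the whole window of Snhg4, a lncRNA gene that hosts small nucleolar RNAs, and had 25.5 and 28.6 FPKM. Whether such members are parts of the transcripts of these genes was not tested. TCONS_00526169, the highest member before puberty, matched the window of Zcchc18 on the same strand and that of Slc25a53 on the other strand.

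AATAAA was searched in the last 50 bases of each transcript. It was found in 116 members, 11.1% (9.32% to 13.1%). The last 50 bases of the reverse strand held it in 18 members, 1.72% (1.09% to 2.70%), and a window of 50 bases that ended 150 bases before the end held it in 35, 3.34% (2.41% to 4.61%). The motif was thus more frequent at the given 3′ ends than in either comparison. Short lncRNAs held it in 4.60% (3.82% to 5.53%), long lncRNAs in 12.8% (10.6% to 15.5%) and all lncRNAs in 7.70%.

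Where present in the members, the last copy began a median of 19.5 bases before the end (quartiles 13.0 and 28.3), as in the ends printed above. By length, it was found in 10.7% of members at up to 500 nt, 6.47% at 500 to 600 nt and 22.8% above 900 nt (14.9% to 33.2%). Members with the motif were measured in both libraries in 85.3% (77.8% to 90.6%), against 70.8% of those without it (67.8% to 73.6%). Their median length was 618 nt against 564 nt, and the part of length was not tested. Their median levels were 1.05 and 0.840 FPKM against 0.935 and 0.541 FPKM. Of the 116, 2 were at least 2-fold higher at puberty (1.72%) and 8 lower (6.90%), beside 4.62% and 11.4% of members without the motif.

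**Figure D5:**
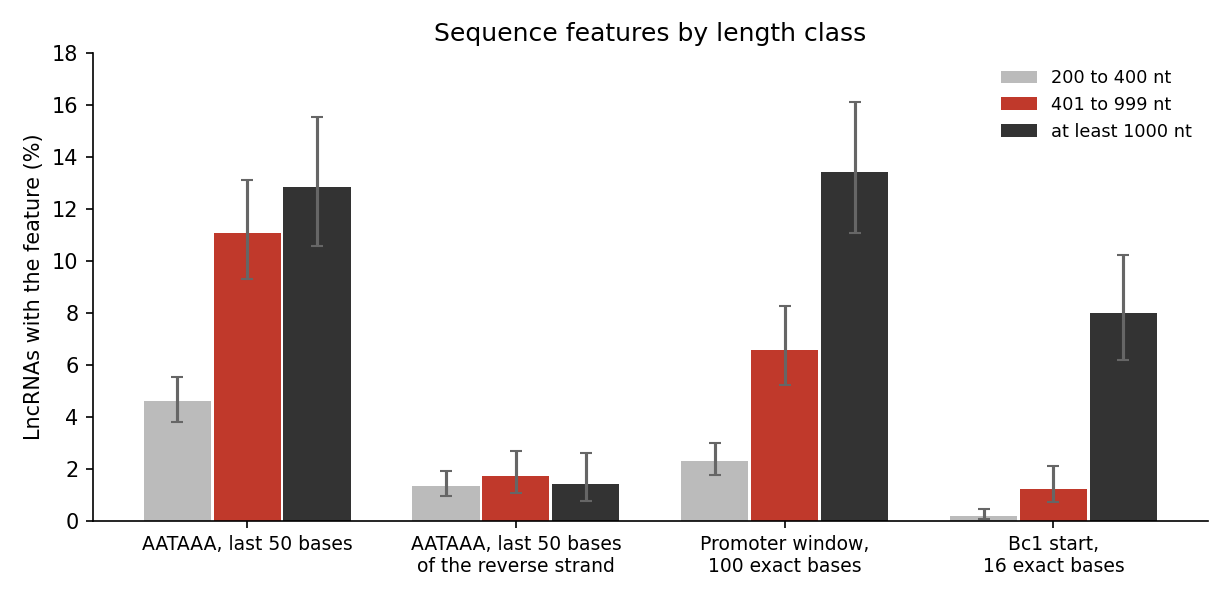
Bars give the share of lncRNAs of each length class (up to 400 nt, between 400 and 1000 nt, and at least 1000 nt) with AATAAA in the last 50 bases, with it in the last 50 bases of the reverse strand, with a promoter window match and with a piece of Bc1. Error bars are Wilson intervals at 95%. In 3 of the 4 features the middle class lies between the others, and on the reverse strand all 3 classes lie under 2%.

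Lower-case letters in the deposited sequences were read as repeats, as in a soft-masked genome, although the sources used here do not state their meaning. They made up a median of 18.4% of a member (quartiles 0.695% and 41.3%). The medians were 13.0% for short and 23.4% for long lncRNAs. More than 50% was in lower case in 188 members (18%), none in 24.0%, and all in 9. Prepubertal medians were close across this share, and pubertal medians lay further apart, from 0.349 FPKM in members above 75% to 0.679 FPKM at 25% to 50%. Members without a lower-case base had a median of 0.971 FPKM before puberty and were measured in both libraries in 68.5% (62.5% to 74.0%), and members above 75% had 0.942 FPKM and 63.4% (51.8% to 73.6%). The share measured in both was highest, 77.6% (72.0% to 82.3%), at 25% to 50%. TCONS_00275268, of 629 nt, and TCONS_00038475, of 585 nt, were all in lower case and had 1.03 and 2.84 FPKM before and 0 and 1.98 FPKM at puberty.

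Members shared few sequence words. Of 525090 different words of 12 bases, counted with their reverse complement, 92.1% were found at 1 of the 924 loci. A run of A was the most widespread, at 20 loci (2.16%, against 3.27% of the 3543 loci of all lncRNAs). Of words that are not simple repeats, GAGATGGCTCAG and TGAACCTCTGAA were at 14 loci each (1.52%), against 1.47% and 0.649% of all lncRNA loci. Both words were always in lower case. Of different loci, 5 pairs shared an exact run of 60 bases or more. TCONS_00468101, of 468 nt, lies whole within TCONS_00468095, of 830 nt, although they are listed under different loci, and their levels of 1.60 and 2.84 FPKM and of 1.60 and 2.13 FPKM cannot be told apart by their reads within that stretch.

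Bc1 is a short neuronal RNA of rodents, and the ID elements scattered through the rat genome are related copies of its beginning. Words of 16 bases from the first 50 bases of Bc1 were found in 13 members, 1.24% (0.727% to 2.11%), against 0.174% of short lncRNAs (0.0675% to 0.446%) and 7.99% of long lncRNAs (6.2% to 10.2%). The given strand held them in 8 members and the reverse strand in 5. All 13 were measured in both libraries, with medians of 1.37 and 1.52 FPKM. The first 50 bases of Bc1, from RefSeq (GRCr8, plus strand, chr1:209502897-209502946), are printed above the matching stretches of 5 members, picked among the longer exact runs. TCONS_00436547 is not printed and departs further, with a run of 30 bases and 11 differing bases. The exact runs of the 13 members went down to 16 bases, so the printed stretches do not show the full departure. TCONS_00376706 and TCONS_00087401 are read on the reverse strand, and capitals mark the longest run identical to Bc1.
Bc1: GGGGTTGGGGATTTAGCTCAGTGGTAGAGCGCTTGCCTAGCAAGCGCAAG
TCONS_00311669: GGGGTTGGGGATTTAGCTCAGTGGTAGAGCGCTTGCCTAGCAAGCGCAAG
TCONS_00376706: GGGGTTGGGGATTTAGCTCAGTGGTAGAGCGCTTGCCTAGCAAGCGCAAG
TCONS_00087401: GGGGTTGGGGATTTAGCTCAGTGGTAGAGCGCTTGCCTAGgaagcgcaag
TCONS_00160586: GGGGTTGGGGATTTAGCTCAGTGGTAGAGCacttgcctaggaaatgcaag
TCONS_00056509: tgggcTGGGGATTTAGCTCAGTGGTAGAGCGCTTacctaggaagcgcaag

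TCONS_00311669 and TCONS_00376706 were identical to Bc1 over all 50 bases, TCONS_00087401 differed at 1 base, and TCONS_00160586 and TCONS_00056509 at 4 bases each. Their prepubertal levels were 1.60, 2.16, 2.62, 1.73 and 1.97 FPKM and their pubertal levels 1.79, 1.53, 3.45, 1.18 and 6.58 FPKM. Reads that fall whole within such copies match many places in the genome, and how they were assigned is not given in the sources used here.

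The GC content of the members had a median of 47.8% (quartiles 44.0% and 51.3%), against 48.5% for short and 45.7% for long lncRNAs. The 16 members of 60% or more were all measured in both libraries, with medians of 3.98 and 4.59 FPKM, against 1.13 and 0.590 FPKM for the 94 members under 40%. Their 80 middle bases are printed for the extremes, with G and C in capitals. TCONS_00205063, of 66.3%, had 2.63 and 1.81 FPKM, and TCONS_00497295, of 28.2%, had 1.81 and 0.536 FPKM.
TCONS_00205063: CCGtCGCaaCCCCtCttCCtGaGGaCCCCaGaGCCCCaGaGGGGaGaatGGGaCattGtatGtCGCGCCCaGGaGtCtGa
TCONS_00497295: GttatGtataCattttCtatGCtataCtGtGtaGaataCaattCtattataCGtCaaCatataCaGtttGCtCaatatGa

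G or C filled 50 of the 80 bases of the former and 22 of those of the latter. TCONS_00156350 and TCONS_00168482 followed at 66.0% and 65.8%, with 6.29 and 8.62 FPKM before and 6.93 and 7.84 FPKM at puberty. At the other end TCONS_00037428, of 29.5%, had 2.41 and 2.86 FPKM, and TCONS_00451940, of 31.0%, had 1.33 and 0.698 FPKM.

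The longest reading frame from ATG to stop had a median of 138 nt on the given strand (quartiles 99 and 189) and of 141 nt on the reverse strand. It was longer on the given strand in 46.8% of members and longer on the reverse strand in 51.7%. A frame of 300 nt or more was found in 38 members on the given strand and 67 on the reverse strand. The longest was 456 nt, in TCONS_00352019, which had 0.515 and 0.130 FPKM, and TCONS_00209025 had a frame of 402 nt. In TCONS_00143264 the frame took 441 of 464 nt, 95% of the transcript, at 0.696 and 0.579 FPKM from 3 and 2 fragments. The first 150 bases of TCONS_00143264 are printed because the frame spans almost all of it, with its ATG in capitals.
TCONS_00143264: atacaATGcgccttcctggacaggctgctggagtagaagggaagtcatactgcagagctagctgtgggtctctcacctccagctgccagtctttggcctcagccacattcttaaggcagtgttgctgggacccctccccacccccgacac

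Transcripts with coding potential had been removed by the authors before the tables were deposited.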

How the data were processed

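Hypothalamic RNA of prepubertal and pubertal female rats was depleted of ribosomal RNA and sequenced as strand-specific paired-end libraries. Reads were aligned by the authors with TopHat. Transcripts came from Cufflinks 2.1.1 and Scripture, and CNCI, CPC and Pfam-scan served to discard possible coding transcripts. The deposited FPKM values were estimated by the authors with Cuffdiff 2.1.1. The submitters' processing notes name the Rnor_5.0 build. The authors' comparison table also holds fold changes, p-values and q-values, which were not used. Its transcript lengths and loci were used, and each length matched that of the deposited sequence.

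Stages were compared per transcript as log2((pubertal + 1)/(prepubertal + 1)), that is with a pseudocount of 1, which understates differences of low transcripts. With 1 library per stage no test was run. Fragments were derived from the FPKM steps of single-transcript loci as FPKM × library size × (length − 256 nt before or 250 nt at puberty)/1000, with library sizes of 20.7 and 16.14 M fragments. Wilson intervals, and exact binomial intervals for ratios of fragments, cover counting error at 95%. Limits for a value of 0 use 3 fragments per library.

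The members and the gene lists were chosen with earlier results of these data known. Named members were the 5 highest in each library, the 5 largest ratios each way among members above 0 in both with 1 FPKM or more, the 3 highest among those at 0 in the other library, the extremes of length, GC, repeat share and reading frame, the loci with most members, the pairs with most shared sequence, and members with a neighbour in the study's list. Members shown for the signal at their end were taken by prepubertal level. Members shown for a promoter match were picked from that search by no fixed rule, and those for Bc1 among the longer exact runs. RefSeq promoter windows of GRCr8 gave gene starts. Alternatives were other pseudocounts, filters, lengths, sums per locus, equal medians (a factor of 1.04) and rules for reading frames. The steps were tested on simulated data, where 701 of 701 and 629 of 629 fragment numbers and 200 of 200 reading frames were recovered. The simulated fragment values were built with the same step formula, so their recovery checks the code and not the library sizes. Python 3.11.15, numpy 2.4.6, pandas 2.3.3 and scipy 1.17.1 were used. No unmapped columns were left.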

Additional observations from a re-analysis of the deposited data

How the results depend on the processing

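The share of members measured in both libraries was 72.4% and became 24.8% when 1 FPKM was required, 75.3% per locus, 64.7% below 700 nt and 91.1% from 700 nt up. The count of 45 higher members became 114 with a pseudocount of 0.1, 19 per locus, 35 with FPKM above 0 in both libraries, 25 and 20 below and from 700 nt, and 13 with at least 10 fragments at single-transcript loci, a setting chosen after seeing the data. The count of 114 lower members became 471 with a pseudocount of 0.1, 20 with FPKM above 0 in both libraries, 7 from 700 nt up and 12 with at least 10 fragments. The median log2 ratio of -0.38 became -0.77 with a pseudocount of 0.1, -0.17 above 0 in both libraries, -0.15 with 1 FPKM in a library, -0.51 and -0.10 below and from 700 nt, and -0.049 with at least 10 fragments. The median reading frame of 138 nt became 231 nt from stop to stop and 147 nt when the end of the transcript could close it. The sign of the median ratio was the same in each of these settings, but the balance of higher to lower members was not. The 45 to 114 over all members became 35 to 20 above 0 in both libraries and 20 to 7 from 700 nt up. It became 13 to 12 with at least 10 fragments. Lower members outnumbered higher ones with 114 to 471 at a pseudocount of 0.1, 19 to 119 per locus and 25 to 107 below 700 nt. The remaining 18 of 39 recomputed values, among them GC content, repeat share and depth, moved by less than the limits set. The cause of the moves was not tested, beyond the fewer members or added zeros that a filter or pseudocount brings. No paired analysis was possible because each stage has 1 library. Depth is a limit: 107 of the 494 single-transcript members above 0 at puberty rested on 1 fragment.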
